A study of Mus musculus with 31 samples.

Results

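Lungs of mice given oleic acid were compared between the late times after the injection, 18 and 24 h, and the early times, 1, 1.5, 3 and 4 h. The late group held 6 arrays, 3 at 18 h and 3 at 24 h. The early group held 10 arrays, 3 at 1 h, 2 at 1.5 h, 2 at 3 h and 3 at 4 h. These 16 arrays were taken from the 18 oleic acid arrays among 31 in all. They were chosen by the time on their labels, and replicate 3 at 1.5 h and replicate 2 at 3 h were left out because their slopes of signal against spike-in amount lay outside 0.8 to 1.2. Each array carried whole-lung RNA of 1 female C57BL/6 mouse aged 6 weeks. Oleic acid (1.2 µl per g of body weight, 200 µl) was injected into the tail vein under xylazine and ketamine anaesthesia. Saline mice received 200 µl of physiological serum by the same route under the same anaesthesia, and their 4 late and 9 early arrays show how the lung differed between the same times without oleic acid. The labels do not give the hour of the day at which lungs were taken, and no uninjected mice are among the samples.

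Oleic acid, a free fatty acid, damages lung capillaries after intravenous injection, and the injured mouse lung fills with protein-rich fluid and neutrophils, which makes it a model of acute lung injury. Adrenal glucocorticoids act on the lung through a nuclear receptor and raise a well known set of genes in many cell types. The lung also runs a circadian clock, in which transcriptional activators drive their own repressors and a layer of output genes.

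Levels are log2 processed signals from which each array's 75th percentile was subtracted, and differences are the mean of the late time means minus the mean of the early time means, so that 1 unit is a doubling. The limma fit took in 12 group means over 29 arrays, and a gene was called when its Benjamini-Hochberg adjusted p over 29425 features was under 0.05. Of these features 16526 had a current gene symbol. Lung markers were bright in both groups. Sftpc, the surfactant protein of alveolar type 2 cells, had a median of 9.49 in late and 9.69 in early arrays, and Scgb1a1, the secretoglobin of club cells, 9.60 in late and 9.89 in early arrays. Ager of alveolar type 1 cells, Foxj1 of ciliated cells and Cldn5, Cdh5 and Pecam1 of endothelium lay above background on all 16 arrays. Between 54.17% and 82.39% of spots lay well above background on the late arrays, against 51.18% to 76.13% on the early arrays. Slides followed time. The late oleic acid arrays were all on slide 4, and the early ones were on slides 1, 2 and 3, so slide and late against early cannot be told apart in oleic acid lungs. Precision is limited by the number of arrays, and the labels do not say whether same-group mice shared a cage or a day.

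In oleic acid lungs limma called 1463 features between late and early times, or 4.97% of those tested. Of these 579 were higher late (1.97%) and 884 were lower late (3%). This balance differed in other fits. With slide as an added fixed term 76 were higher and 24 lower, but that fit took 1 time difference for oleic acid and saline arrays together. Its values, here and below, are thus not those of oleic acid lungs alone. With the arrays of slides 3 and 4 alone 498 were higher and 468 lower. There the early oleic acid arrays were of 3 and 4 h on slide 3, so slide and time could still not be told apart. Against the 3 and 4 h arrays of all slides 940 were higher and 1204 lower. Changes of at least 1 log2 unit were found for 73 of the higher and 142 of the lower calls. The 6 late arrays lay wholly above the 10 early arrays for 109 of the higher calls, and wholly below them for 192 of the lower calls, where 0.401% and 0.751% of all features did so. The median difference over all features was -0.02. Leaving out oleic acid 24 h replicate 1 gave 765 calls and leaving out oleic acid 18 h replicate 3 gave 959. With all 31 arrays 80 features were called, and with each array centred on its median 68, 11 higher and 57 lower.

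Both late times contributed. Against the same early arrays, the 3 arrays at 18 h gave 474 calls (1.61%), 148 higher (0.503%) and 326 lower (1.11%). The 3 arrays at 24 h gave 249 calls (0.846%), 103 higher (0.35%) and 146 lower (0.496%). Counts at single times rested on 3 late arrays, and leaving out 1 of them gave 98 to 125 calls at 18 h and 62 to 70 at 24 h. Leaving out oleic acid 1.5 h replicate 1, 1.5 h replicate 2 or oleic acid 3 h replicate 3 gave 305, 301 or 308 calls at 18 h, and without oleic acid 1.5 h replicate 2 there were 124 at 24 h.

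The rises given first are the 12 with the largest log2 changes among called genes whose late and early arrays did not overlap, which was a condition of their choice. Gsta1, a glutathione transferase that conjugates oxidised lipids, ranged from -1.14 to 1.34 around a median of -0.18 in late arrays, against -4.88 to -1.70 around -2.67 in early arrays. The lowest late array thus lay above the highest early array, and the difference was 2.68 (95% interval 1.97 to 3.39, limma adjusted p = 0.00019). Its time means were 0.49 at 18 h and -0.76 at 24 h, so the higher of the late levels was at 18 h. Sox11, a transcription factor of developing epithelium and neurons, had late levels of -0.95 to -0.54 (median -0.71) and early levels of -2.35 to -1.11 (median -1.93), a difference of 1.15 (0.79 to 1.51, limma adjusted p = 0.000837). Hes2, a relative of the Notch-responsive repressors, had late levels of -0.52 to 0.00 (median -0.30) and early levels of -1.90 to -0.70 (median -1.29), a difference of 1.09 (0.86 to 1.32). Gpr183, a receptor for oxysterols that guides immune cells through lymphoid tissue, was 0.98 higher late (0.64 to 1.31). Prdm8, a transcriptional repressor, was 1.46 higher (1.03 to 1.90), and Mthfsd, a protein with a synthetase-like domain, 0.93 higher (0.68 to 1.17), where its other kept probe differed by 0.19.

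Some of the rises were of genes near background. Gmnc, a coiled-coil protein that starts the programme of multiciliated cells, lay above background on 6 of 6 late and 2 of 10 early arrays and differed by 1.35. Plau, the urokinase that activates plasminogen, lay above background on 5 of 6 late and 2 of 10 early arrays and differed by 1.2, and by -0.37 with slide as an added fixed term. Sox2ot, a long noncoding RNA that spans the Sox2 gene, did so on 5 of 6 late and 1 of 10 early arrays, with a difference of 1.78. Atad3aos did so on 5 of 6 late and 4 of 10 early arrays, with a difference of 1.32. For such genes most early arrays held no signal above background. The size of the change thus rests on signals at the edge of detection, and no interval or p is given. Rbm12b2 differed by 0.98 (0.57 to 1.38) and B3gnt4, a sugar transferase, by 0.91 (0.53 to 1.30).

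The 12 falls chosen in the same way, again only among genes without overlap, leave out genes with large falls whose groups overlapped, such as Zbtb16 (-2.51) and Per1 (-2.01), which are described with their lists. Il1r2, the decoy receptor that binds interleukin 1 without signalling, ranged from -2.33 to -0.94 (median -1.73) in late arrays, against -0.08 to 0.97 (median 0.40) in early arrays. No late array reached the lowest early one, and the difference was -2.15 (-2.73 to -1.58, limma adjusted p = 0.000216). Foxo3, a transcription factor of the stress and starvation response, ranged from -1.82 to -1.12 in late and from -1.11 to 1.67 in early arrays, and differed by -1.86 (-2.19 to -1.52, limma adjusted p = 4.99e-06). The ranges nearly met, and a second probe of Foxo3 differed by -0.50. Tent5b, a poly(A) polymerase family member, had late levels of 1.60 to 2.22 and early levels of 2.83 to 4.15, a difference of -1.69 (-2.02 to -1.36). Mir22hg, the host transcript of a microRNA, had the smallest p of all features. Its levels were -0.19 to 0.16 (median 0.04) late and 0.53 to 1.75 (median 1.21) early, and the difference was -1.16 (-1.34 to -0.98, limma adjusted p = 8.83e-07).

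Among the remaining falls, Hif3a, a hypoxia-inducible factor subunit that is also raised by glucocorticoids, differed by -1.65 (-2.22 to -1.08), but its other kept probe differed by 0.60, so the probes disagreed in direction. Osgin1, an oxidative stress-induced growth inhibitor, differed by -1.28 (limma adjusted p = 3.5e-05), with late levels of 1.56 to 2.19 and early levels of 2.76 to 3.77. Il20rb, a receptor chain for interleukins 20 and 24, was 1.67 to 1.96 units below the scale's zero in late arrays, against at most 1.05 units below it in early arrays, and differed by -1.22 (-1.48 to -0.95). Zfp787, a zinc finger protein, differed by -1.06 (-1.36 to -0.76), and its 3 kept probes ranged from -1.06 to -0.15. Zim3, a KRAB zinc finger gene, differed by -1.22 (-1.69 to -0.74) and lay above background on 3 of 6 late and 10 of 10 early arrays. Of Doc2b, Tex35 and Olfr434 no late array lay well above background, so only bounds apply to their falls. They passed the filter on dim probes only through early groups, where they are high, and no p is given for them. Doc2b, a calcium sensor of vesicle release, was at least 3.25-fold lower late, Tex35 at least 1.67-fold lower and the olfactory receptor gene Olfr434 at least 1.71-fold lower. Here the bright group's mean was set against the lowest signal among probes well above background on each late array.

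**Figure D1:**
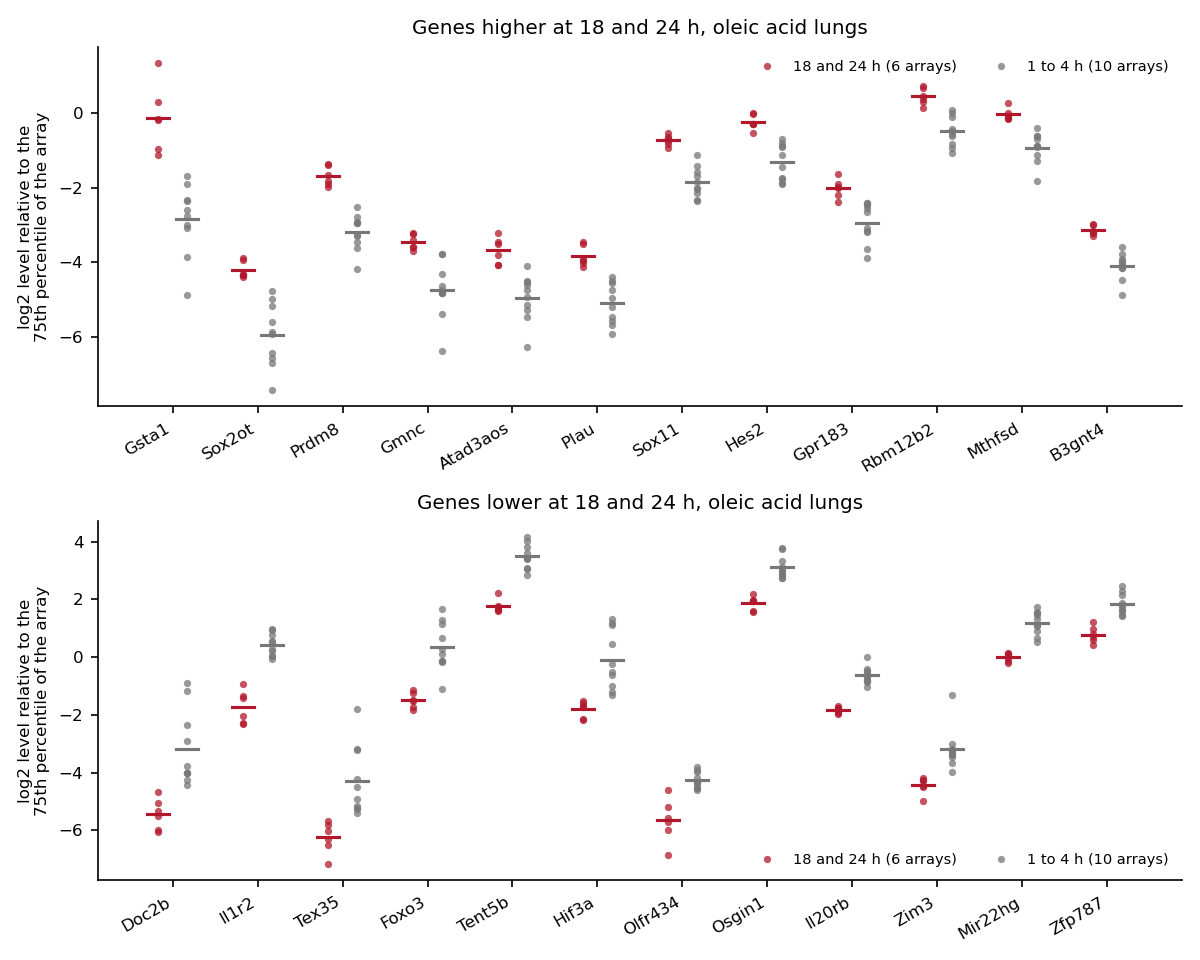
Log2 level of the 12 largest rises (top) and 12 largest falls (bottom) in oleic acid lungs among called genes whose late and early arrays do not overlap; each point is 1 array, red for 18 and 24 h and grey for 1 to 4 h, and each bar is the mean over the arrays of its group. Gsta1 has the largest difference among the rises shown, 2.68.

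Saline lungs differed between the same times too. Limma called 813 features between late and early saline arrays (2.76%), 395 higher (1.34%) and 418 lower (1.42%). Leaving out saline 18 h replicate 1 gave 225 calls, 24 h replicate 1 256, 24 h replicate 2 474, 3 h replicate 2 487, 1.5 h replicate 1 492 and 18 h replicate 2 513. Of the 12 rises without overlap chosen above 7 were also called in saline lungs, and of the 12 falls 9 were. In both treatments 243 features were called higher and 322 lower, and 0 were called in opposite directions. The shared calls made up 38.6% of the oleic acid calls and 69.5% of the saline calls. Of the 1463 oleic acid calls 1440 had a saline value of the same sign. Across genes the oleic acid and saline differences correlated with r = 0.594, which is a description, since genes are not independent and both differences span the same slides.

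Hes2 differed by 1.21 in saline lungs (limma adjusted p = 5.93e-05), Gsta1 by 2.92, Foxo3 by -2.11, Mir22hg by -1.06 and Tent5b by -1.68. Ppp1r3c, a glycogen-targeting subunit of protein phosphatase 1, was 1.07 higher late in oleic acid and 1.65 higher late in saline lungs. Plk3, a stress-responsive kinase, was 0.91 lower late in oleic acid and 1.37 lower late in saline lungs. Fdxacb1 was 0.69 higher late in oleic acid and 0.77 higher late in saline lungs. Per1, a clock gene described below, was 2.38 lower late in saline lungs. Olfr73, another olfactory receptor gene, was called higher late in saline lungs, where it lay above background on 2 of 4 late and 0 of 9 early arrays, and its signal was at background on all 16 oleic acid arrays, which leaves its size undefined.

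The difference of the differences asked which genes changed between early and late times by another amount in oleic acid than in saline lungs. Limma called 0 features for it (0%), with 0.129 as the smallest adjusted p, and 432 features reached an unadjusted p under 0.05 (1.47%). Its median standard error was 0.267, against 0.174 for oleic acid late minus early. Without each of the arrays in turn it gave 0 to 10 calls, 10 of them without saline 18 h replicate 2, 4 without saline 24 h replicate 1 and 1 without saline 18 h replicate 1. Without the 5 arrays where over 70% of spots lay above background it gave 27 calls, all below 0. Named features with the smallest p were Zfp623 (0.82, 0.38 to 1.26), Ddit4 (1.17, 0.43 to 1.91), Rdh13 (0.65), Celf6 (0.97) and Nrsn1 above 0. Below 0 they were Mapk10 (-0.54), the chemokine Ccl8 (-0.96, -1.56 to -0.36), Olfr73, Dpp10 and Krt6b. Olfr73, Dpp10 and Krt6b were at background on the 6 late oleic acid arrays, and Nrsn1 on the 4 late saline arrays, which leaves their sizes undefined. Celf6 lay above background on 1 of 4 late saline arrays. None of these 10 passed. Ddit4, a stress-induced inhibitor of mTOR signalling, differed by -0.74 in oleic acid lungs, which did not pass, and was called at -1.91 in saline lungs.

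**Figure D2:**
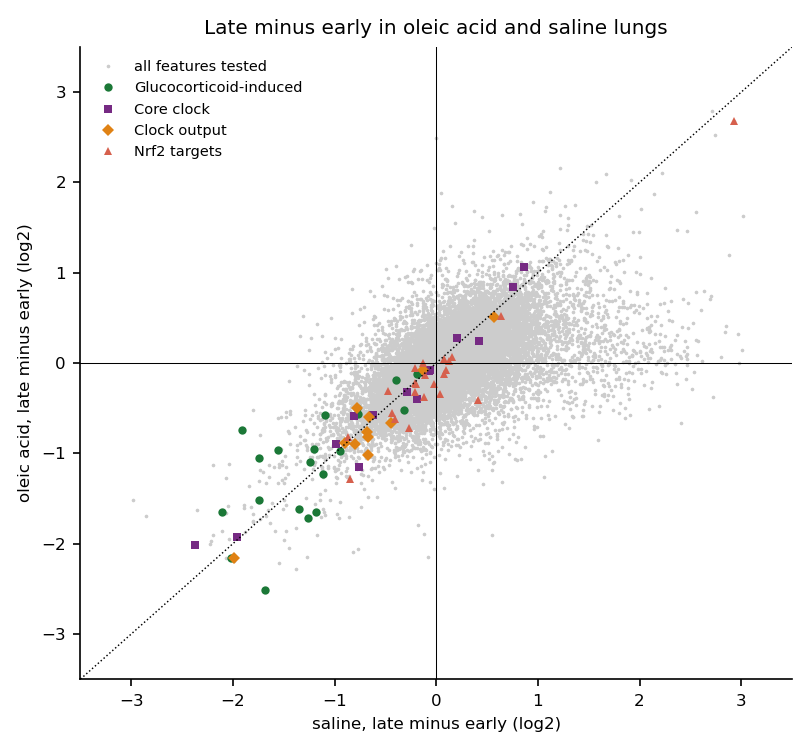
Late minus early difference of every tested feature in oleic acid lungs (vertical, log2) against that in saline lungs (horizontal, log2), with 4 gene lists marked; the dotted line marks equal differences. The glucocorticoid-induced and clock genes lie mainly in the lower left, lower late in both treatments, and Gsta1 is the Nrf2 target at the upper right, at 2.68 in oleic acid and 2.92 in saline lungs.

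Genes raised by glucocorticoids were lower late as a group. Of the 20 measured, 13 fell, 0 rose and 7 did not pass, beside 3% of all features called lower and 1.97% higher. The median difference was -1.01, beside -0.02 over all features. All 20 values lay below 0. The mean level of the list was 2.06 to 2.33 on the late arrays, against 2.34 to 4.32 on the early arrays, so every late array lay below every early one, although the nearest pair almost touched. In saline lungs 12 of the 20 fell, beside 1.42% of all features, and the median was -1.22, and 10 genes fell in both treatments. With all 31 arrays 4 of the 20 fell, with median centring 4, and with slide as an added fixed term 2.

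Klf9, a Krüppel-like transcription factor induced directly by the glucocorticoid receptor, ranged from 2.57 to 2.99 (median 2.78) in late arrays and from 2.94 to 4.65 (median 4.19) in early arrays. The highest late array, at 24 h, lay just above the lowest early one, at 1.5 h, and the difference was -1.23 (-1.51 to -0.96, limma adjusted p = 3.5e-05). Zbtb16, a zinc finger regulator strongly induced by the hormone, ranged from 0.15 to 2.30 (median 0.78) late and from 1.61 to 5.01 (median 3.42) early, a difference of -2.51 (-3.37 to -1.65). It had the largest fall of the list. Pdk4, the kinase that blocks entry of pyruvate into the citric acid cycle, ranged from -1.41 to 0.01 (median -0.60) late and from -0.76 to 2.61 (median 1.24) early, and differed by -1.65 (-2.21 to -1.09). Map3k6, a stress kinase, differed by -1.62 (-2.07 to -1.17) and Slc10a6, a carrier of steroid sulphates, by -0.98 (-1.31 to -0.64).

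The early level was not even. All 20 genes had their highest early mean at 3 or 4 h. So did 21 of 22 immediate early, 19 of 20 fat cell and 17 of 19 platelet genes, but only 2 of 22 T cell genes. The share over all features was not counted. Among the glucocorticoid-induced genes, Zbtb16 had oleic acid means of 2.54, 2.39, 4.06 and 4.85 at 1, 1.5, 3 and 4 h and 0.97 and 0.93 at 18 and 24 h. Pdk4 had means of -0.22, 0.24, 1.80 and 2.48 at the early times and -0.42 and -0.73 at the late times, so its 1 h level was close to its late levels. Il1r2 had means of 0.24, 0.30, 0.60 and 0.58 early and -1.75 and -1.70 late, a level that stood apart from the late one already at 1 h. Against the 4 h arrays alone, 17 of the 20 glucocorticoid-induced genes were lower late, where 6.71% of all features were called and 3.71% were lower.

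Metallothioneins and growth-arrest genes belonged to the same group. Mt2 and Mt1, which bind zinc and are raised by glucocorticoids, differed by -1.52 (-2.30 to -0.75) and -1.09 (-1.69 to -0.49). Sgk1, the kinase that keeps sodium channels at the cell surface, differed by -0.57 (-0.83 to -0.31), with a 1 h mean of 2.13 that was below its late means of 2.34 and 2.36. Cdkn1a, the p21 cell cycle inhibitor, differed by -0.95 and Errfi1, a feedback inhibitor of the epidermal growth factor receptor, by -1.05. Fkbp5, a cochaperone of the receptor itself and chosen for naming after its values were seen, differed by -1.71 (-2.45 to -0.98) with a 4 h mean of 3.75 and late means of 0.01 and -0.03. Cebpd, a transcription factor of the acute phase, differed by -0.58 and did not pass, and was called at -1.09 in saline lungs.

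**Figure D3:**
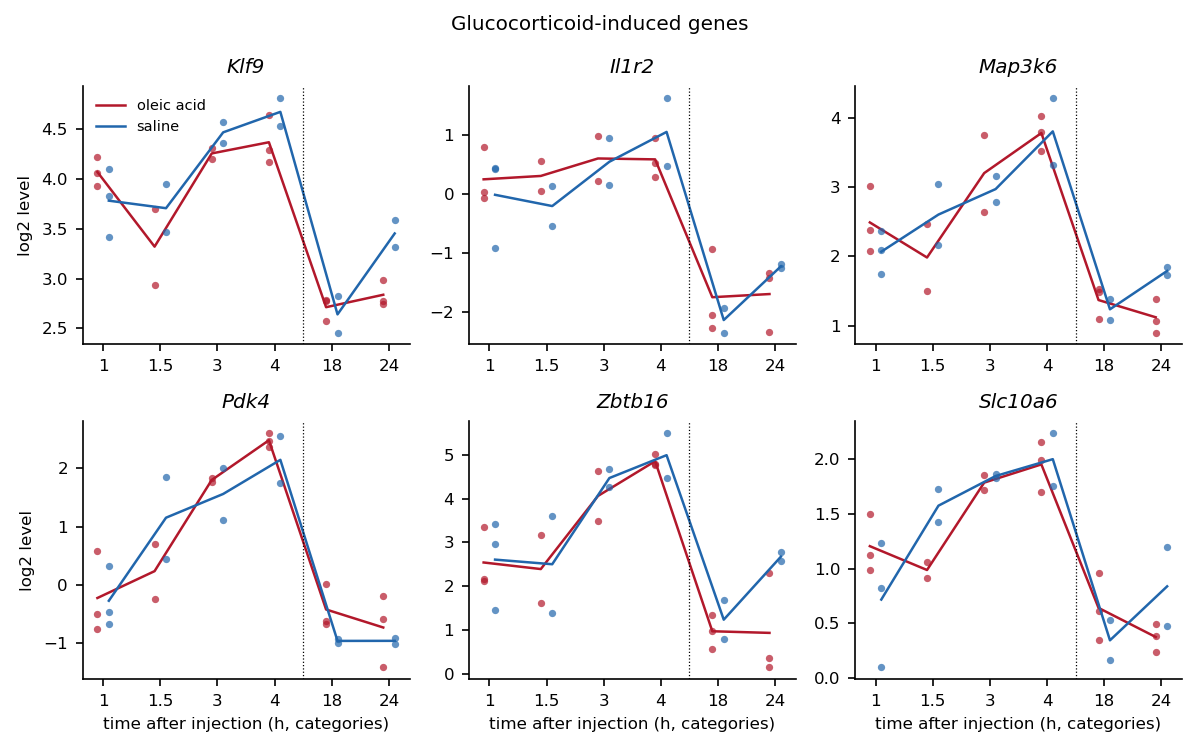
Log2 level of 6 glucocorticoid-induced genes at 6 times after injection (hours, as equally spaced categories), with a point per array and a line through the time means, red for oleic acid and blue for saline; the dotted line divides early from late. Levels of Zbtb16 and Pdk4 are highest at 3 and 4 h in oleic acid lungs and low at 18 and 24 h.

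The promoters of the list's falls with the smallest p and of the clock genes below are shown because the members were called in one direction. They run from 250 bases before to 50 bases after the start, on the gene's strand, and were taken from RefSeq (GRCm38.p6). Capitals mark the E-box CACGTG, the site of the clock activators. Both strands were also searched for the D-box TTATGTAA, the cAMP response element TGACGTCA, the core AGAACA of the glucocorticoid response element and the full palindromic element, whose ends hold that core. The Klf9 window is chr19:23140976-23141275 (plus strand) and that of Il1r2 is chr1:40085843-40086142 (plus strand).
Klf9: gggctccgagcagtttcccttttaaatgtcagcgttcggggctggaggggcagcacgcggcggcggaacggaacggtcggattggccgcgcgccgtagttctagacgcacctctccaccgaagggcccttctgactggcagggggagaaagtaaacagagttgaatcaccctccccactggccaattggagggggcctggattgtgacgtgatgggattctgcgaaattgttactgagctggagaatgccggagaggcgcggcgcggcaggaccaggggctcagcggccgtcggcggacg
Il1r2: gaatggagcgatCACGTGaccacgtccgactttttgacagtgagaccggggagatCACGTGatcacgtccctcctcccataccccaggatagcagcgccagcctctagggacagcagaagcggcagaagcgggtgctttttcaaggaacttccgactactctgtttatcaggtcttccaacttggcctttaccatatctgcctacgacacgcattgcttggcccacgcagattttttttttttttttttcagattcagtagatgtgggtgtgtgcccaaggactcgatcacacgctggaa
Il1r2 held 2 E-boxes and Klf9 none of the motifs in this window. Of 27025 genes with a promoter in the table, 7.24% held an E-box, 19% the AGAACA core and 0.0037% the full element. Among 17 measured members of the list with an entry, 2 held an E-box, 3 the core and 0 the full element.

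Some clock genes fell as well. Of 14 measured core clock genes 4 fell, 0 rose and 10 did not pass, beside 3% of all features lower and 1.97% higher. Their median was -0.36. Per1, a repressor of the oscillator that also answers to glucocorticoids and cAMP, ranged from 2.50 to 4.05 (median 3.84) late and from 3.96 to 6.72 (median 5.61) early. Only the lowest early array lay within the late range, and the difference was -2.01 (-2.54 to -1.49, limma adjusted p = 0.000172). The other kept probe of Per1 differed by -0.66. Nr1d1, the nuclear receptor Rev-erb alpha that represses the activator genes, ranged from 0.44 to 2.87 (median 0.77) late and from 2.20 to 3.97 (median 2.90) early, a difference of -1.93 (-2.59 to -1.26). Its highest late array was oleic acid 24 h replicate 3, and the other 5 late arrays lay below every early array. Without that array 6 core clock genes fell and 1 rose. Cry2, a cryptochrome repressor, differed by -0.57 (-0.89 to -0.25; -1.13 by its other kept probe) and Rora, the receptor that opposes Rev-erb, by -0.40 (-0.59 to -0.22). Per2, another period repressor, differed by -1.15 (-1.86 to -0.45) and did not pass (limma adjusted p = 0.0541), and with slide as a fixed term it differed by 0.54.

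Of 11 clock output genes 4 fell and 0 rose, beside 3% of all features lower and 1.97% higher, with a median of -0.76. Usp2, a deubiquitinase under clock control, differed by -0.88 (-1.23 to -0.53), Wee1, the kinase that delays mitosis, by -1.02 (-1.52 to -0.52) and Bhlhe40, a repressor of the clock activators, by -0.89 (-1.39 to -0.40). Dbp, the output factor that binds D-boxes, ranged from 1.11 to 5.55 late and from 1.83 to 6.00 early, with a difference of -2.16 (-3.35 to -0.98, limma adjusted p = 0.0322). Its highest late array was again oleic acid 24 h replicate 3, and its mean was 3.44 at 24 h and 1.24 at 18 h. At 18 h 3 core and 3 output genes were called lower, beside 1.11% of all features. At 24 h 1 core gene and 0 output genes were, beside 0.496% of all features, but the late times were not tested against each other. In oleic acid lungs 9 of 14 core and 9 of 11 output genes had their lowest early mean at 1.5 h, which rests on 2 arrays. Lists outside the clock did so too, with 48 of 59 ribosomal protein and 15 of 19 platelet genes, but only 1 of 33 interferon-response genes. The share over all features was not counted. Saline lungs gave 2 core falls (median -0.24) and 1 output fall (median -0.67), beside 1.42% of all features lower. With all 31 arrays 1 core and 0 output genes fell, with median centring 2 and 0, and with slide as a fixed term 0 and 0. Leaving out oleic acid 24 h replicate 1 or 24 h replicate 2 gave 1 output fall, and leaving out 1.5 h replicate 2, 3 h replicate 3 or any of the 18 h arrays gave 2.

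The Per1 window is chr11:69098699-69098998 (plus strand, the first of 2 starts in the table) and that of Nr1d1 is chr11:98775328-98775627 (minus strand), with capitals as above.
Per1: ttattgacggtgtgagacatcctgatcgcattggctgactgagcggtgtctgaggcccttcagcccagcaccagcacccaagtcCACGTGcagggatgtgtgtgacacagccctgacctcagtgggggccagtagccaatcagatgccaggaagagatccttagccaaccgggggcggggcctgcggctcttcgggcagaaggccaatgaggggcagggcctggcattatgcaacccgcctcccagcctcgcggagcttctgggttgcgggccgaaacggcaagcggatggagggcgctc
Nr1d1: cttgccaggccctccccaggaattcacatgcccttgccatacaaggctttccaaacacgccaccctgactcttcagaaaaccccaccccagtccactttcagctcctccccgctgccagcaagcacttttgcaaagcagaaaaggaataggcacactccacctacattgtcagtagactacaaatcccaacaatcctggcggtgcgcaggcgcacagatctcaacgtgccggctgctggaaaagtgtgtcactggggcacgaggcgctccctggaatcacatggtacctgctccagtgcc
Per1 held 1 E-box in this window and Nr1d1 none of the 5 motifs. Among 10 measured core clock genes with an entry 1 held an E-box, and among 9 output genes 3 did. Those 3 were Bhlhe41, Ciart and Tef, which were not called. Of the output genes called lower 2 had an entry, and 0 of these held an E-box.

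**Figure D4:**
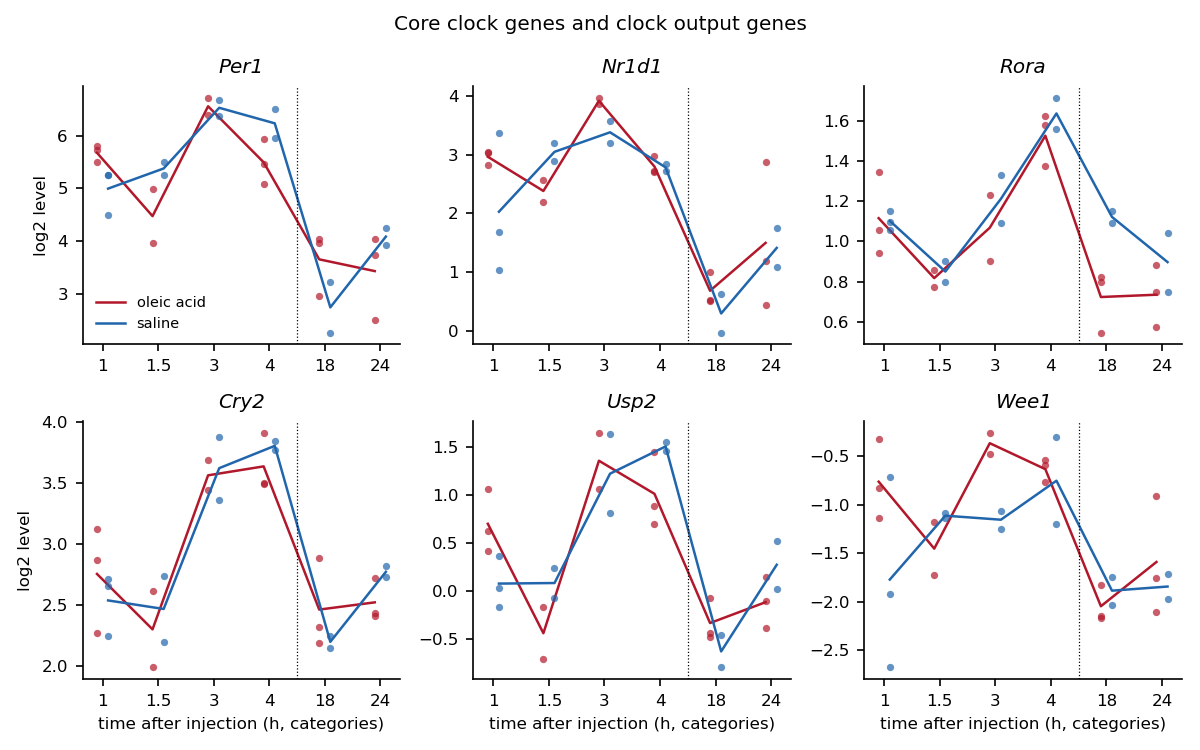
Log2 level of 4 core clock genes and 2 clock output genes at 6 times after injection (hours, as equally spaced categories), with a point per array and a line through the time means, red for oleic acid and blue for saline. Oleic acid means of Per1 and Nr1d1 are lowest at 18 and 24 h, and their early means are lowest at 1.5 h.

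The only late and early arrays of one treatment that shared a slide were those of saline mice at 18 and 4 h, on slide 3. Between them 1586 features were called (5.39%), 468 higher (1.59%) and 1118 lower (3.8%). Each time held replicates 1 and 2 only. On saline 18 h replicate 2, 77.5% of spots lay above background, so it was among the 5 arrays over 70%. On that slide 17 of the 20 glucocorticoid-induced genes, 6 of 14 core clock genes and 6 of 11 output genes were lower at 18 h than at 4 h. Per1 differed there by -3.50, Nr1d1 by -2.49, Klf9 by -2.04, Zbtb16 by -3.76 and Il1r2 by -3.18. Hes2 differed by 1.55 and Foxo3 by -2.96 within the slide. Gsta1 differed by 1.70 there and did not pass, and Klf2, described next, by -0.24.

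Immediate early genes, which answer within minutes to growth and stress signals, gave few calls. Of 22 measured 1 rose and 2 fell, with a median of -0.10 that turned positive under 1 of the other settings. Over all features 1.97% were called higher and 3% lower, and these shares stand beside every oleic acid count below. Counts of 1 in the larger lists lie near them. Klf2, an endothelial factor raised by blood flow, ranged from 4.44 to 5.52 (median 4.95) late and from 3.21 to 4.79 (median 4.10) early, and differed by 0.93 (0.51 to 1.34, limma adjusted p = 0.01). The groups overlapped, and in saline lungs Klf2 differed by 0.08. The difference between treatments, 0.84 (0.21 to 1.47), did not pass. With slide as a fixed term, Klf2 differed by -0.15. Nr4a2, an orphan nuclear receptor, fell by 0.77 (-1.14 to -0.39), with a 3 h mean of 2.51 that was its highest. Atf3, a stress-induced repressor, fell by 1.04 (-1.61 to -0.46). Junb, an AP-1 subunit, differed by -0.85 and did not pass.

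Among Nrf2 targets, which defend cells against oxidants and reactive lipids, more fell than rose. Of 23 measured 5 fell and 1 rose, beside 3% of all features lower and 1.97% higher, with a median of -0.23. Txnrd1, thioredoxin reductase, ranged from 2.61 to 3.02 late and from 2.90 to 4.24 early, and differed by -0.82 (-1.04 to -0.61, limma adjusted p = 0.000188). Cbr3, a carbonyl reductase, differed by -0.72 (-1.04 to -0.41), Srxn1, sulfiredoxin, by -0.55 (-0.81 to -0.29), and Gclc, the catalytic subunit of glutathione synthesis, by -0.63 (-0.96 to -0.29). Osgin1, also of this list, and Txnrd1 fell in saline lungs too, by 0.85 and 0.87. Gsta1 was the riser, described above. With all 31 arrays and with median centring 0 of the 23 fell, and with slide as a fixed term 0 fell and 0 rose.

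Of 21 heat shock genes 2 rose, 1 fell and 18 did not pass, with a median of 0.13. Fkbp4, a cochaperone of steroid receptors, had late levels of 0.82 to 1.41 and early levels of 0.16 to 0.82, a difference of 0.61 (0.37 to 0.86), and Stip1, which links the chaperones Hsp70 and Hsp90, rose by 0.47 (0.19 to 0.76). Hspa4, an Hsp70 exchange factor, differed by -0.39, but its 3 probes ranged from -0.39 to 0.62, and with the mean of its probes it differed by 0.18. In saline lungs, where 1.34% of all features rose, 5 heat shock genes did, Fkbp4, Chordc1, Hsph1, Hspa4l and Hsp90aa1. The last 4 did not pass in oleic acid lungs (0.45, 0.76, 0.31 and 0.31).

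Of 25 genes of the unfolded protein and integrated stress responses 2 rose, 3 fell and 20 did not pass, with a median of 0.05. Sdf2l1, a chaperone partner of the endoplasmic reticulum, rose by 0.77 (0.51 to 1.03) and Creld2, another chaperone there, by 0.37 (0.17 to 0.58). Trib3, a pseudokinase of the integrated stress response, ranged from 0.00 to 0.60 (median 0.38) late and from 0.49 to 1.52 (median 1.34) early, and fell by 0.81 (-1.07 to -0.55). In saline lungs Trib3 differed by -0.22 and did not pass, and the difference between treatments was -0.58 (-0.98 to -0.18), which did not pass either. Herpud1, which helps degrade misfolded proteins, fell by 0.78 and Sesn2, a sestrin, by 0.61. Among 21 hypoxia genes Bnip3, a mitochondrial death and mitophagy protein, fell by 0.70 (-1.02 to -0.38; its 3 probes ranged from -0.70 to -0.16) without overlap of the groups, Pfkfb3, a glycolytic activator, fell by 0.72, and P4ha1, a collagen prolyl hydroxylase, rose by 0.36.

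Inflammatory mediators gave few calls. None of 14 measured cytokines was called, and their median of -0.03 turned sign in 15 of the other settings. Il1b, interleukin 1 beta, had late levels of 0.22 to 1.98 and early levels of 0.41 to 3.25, and differed by -0.64 (-1.28 to 0.00), which did not pass. Of 26 chemokines 1 fell, the platelet chemokine Ppbp (-0.61, -0.96 to -0.26; 0.09 with slide as a fixed term), and the median was -0.32. Cxcl5, a neutrophil attractant made by lung epithelium, was the most uneven, from -6.56 to -0.84 late and from -6.98 to -2.84 early, and its difference of 2.11 (0.57 to 3.64) did not pass. It lay above background on 5 of 6 late and 3 of 10 early arrays, and differed by 2.22 in saline lungs, also without passing. None of 23 acute phase genes was called. Saa2, serum amyloid A2, ranged from -2.90 to 3.01 late and from -4.09 to 0.27 early, with a difference of 1.88 whose interval ran from -0.91 to 4.67. None of 33 interferon-response genes was called.

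Feedback genes of NF-kappaB, the transcription factor of inflammation, gave 3 calls among 17, with a median of -0.11. Nfkbia, its inhibitor, fell by 0.76 (-1.14 to -0.37) and Birc3, a ubiquitin ligase, by 0.70 (-1.01 to -0.40; -0.29 by its other probe). Traf1, an adaptor of the tumour necrosis factor receptors, rose by 0.46 (0.24 to 0.69). All 3 were called in saline lungs in the same direction, at -1.10, -0.89 and 0.61.

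Few cell type markers were called, and in whole-lung RNA fewer cells of a type and less RNA per cell cannot be told apart. Of 26 neutrophil genes 3 fell, Il1r2, Clec4e (-0.87, -1.27 to -0.47) and Clec4d (-0.79, -1.25 to -0.33), which are surface receptors. Their share stands beside 3% of all features called lower, and the median of the list was -0.32. The mean level of the neutrophil list was 0.18 to 1.24 on late and 0.65 to 1.59 on early arrays. Il1r2 was also among the glucocorticoid-induced genes, so the lists are not independent. Of 20 monocyte and interstitial macrophage genes Fcgr4, an Fc receptor, fell by 0.74 (-1.09 to -0.40) without overlap, Csf1r, the growth factor receptor of macrophages, fell by 0.36 (its 3 probes ranged from -0.36 to -0.10) and Ccr2, the receptor that brings monocytes from blood, rose by 0.75 (0.38 to 1.12). Of 18 alveolar macrophage genes Pparg, their lipid-handling regulator, fell by 0.38 (-0.58 to -0.19) without overlap.

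Lymphocyte and platelet genes showed single calls. Of 22 T cell genes Gata3, a factor of type 2 immunity, rose by 0.79 (0.46 to 1.12) without overlap, and Il7r, a cytokine receptor of T cells, fell by 0.63. Of 20 B cell genes Cr2, the complement receptor, rose by 0.76 (0.44 to 1.09; 0.39 by its other probe), and Jchain, which joins secreted antibodies, fell by 0.76 (-1.18 to -0.33), but with slide as a fixed term Jchain differed by 0.86. Of 22 cytotoxic cell genes Klre1, a killer cell receptor, rose by 0.79. Of 19 platelet genes 2 fell, Gp1ba (-0.77) and Ppbp, and all 19 values lay below 0, with a median of -0.37 that turned positive under 1 other setting. Early platelet means ranged from -0.91 to 0.71 and late ones from -0.87 to -0.15. None of 20 erythroid genes was called.

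Markers of epithelium and vessel wall gave few calls too. Of 25 alveolar type 2 genes 1 fell, Ctsh, a cathepsin that processes surfactant proteins (-0.33, -0.52 to -0.14), and of 17 alveolar type 1 genes Gprc5a, a retinoic acid-induced receptor, fell by 0.54 (-0.82 to -0.26). Of 22 club and goblet cell genes Lypd2 and Cyp2f2, an enzyme of club cells, fell by 0.66 and 0.35. None of 29 cilia genes and none of 24 junction genes was called. Of 35 endothelial genes 2 fell and 1 rose, with a median of 0.00 that turned sign under 17 other settings. Gpihbp1, which carries lipoprotein lipase on capillaries, ranged from 4.93 to 5.44 late and from 5.34 to 6.01 early and fell by 0.61 (-0.87 to -0.35). Vwf, von Willebrand factor, fell by 0.42 (-0.63 to -0.21), and Calcrl, a receptor component for adrenomedullin, rose by 0.63 (0.34 to 0.92).

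Among 19 genes of ion and water transport, which clear fluid from the air space, 2 rose and 2 fell. Scnn1a, the alpha subunit of the epithelial sodium channel, fell by 0.41 (-0.61 to -0.21), as did Sgk1, its activating kinase. Slc26a9, a chloride transporter of the airway, rose by 0.47 (0.23 to 0.71) and Aqp4, a water channel, by 0.48 (0.19 to 0.76). Among 24 coagulation genes F3, tissue factor, fell by 0.70 (-1.02 to -0.37), F2r, the thrombin receptor, by 0.49 (-0.70 to -0.29) and Vwf by the value above, while Plau rose. Among 30 vasoactive and eicosanoid genes Ptgs1, the constitutive cyclooxygenase, fell by 0.48 (-0.69 to -0.28) and Slco2a1, a prostaglandin carrier, by 0.38, while Calcrl, also of this list, rose. Among 25 growth factors Bmp4 rose by 0.55 (0.31 to 0.79) and Egf fell by 0.79 (-1.25 to -0.34).

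Metabolic and housekeeping lists gave few calls. Of 38 genes of fatty acid burning only Pdk4 was called, of 23 lipogenic genes none, and of 25 sterol genes Pmvk, a kinase of the mevalonate pathway, fell by 0.60 (-0.85 to -0.35). Among 23 cytochrome P450 and related genes Cyp1a1, the enzyme raised by aryl hydrocarbon receptor ligands, ranged from -3.39 to -0.08 (median -2.64) late and from -1.48 to 2.11 (median -0.86) early, and fell by 1.89 (-2.73 to -1.05, limma adjusted p = 0.00989). Its 1.5 h mean of 0.90 was its highest, and its 4 h mean of -1.38 was close to the 18 h mean of -1.79. In saline lungs Cyp1a1 differed by -0.12, and the difference between treatments, -1.77 (-3.06 to -0.49), did not pass. Cyp2f2 was the other call of this list.

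Of 59 cytosolic ribosomal protein genes 6 fell, beside 3% of all features. In this list 58 values lay below 0, with a median of -0.21, beside -0.02 over all features. Rpl7 differed by -0.29 (-0.43 to -0.15) and Rpl10 by -0.31 (-0.47 to -0.14). These calls were 0 with all 31 arrays, with quantile normalization and with median centring, and the deposited table gave 1 rise and 0 falls, while leaving out 1 array gave 0 to 10. They were also 0 without the 1 h arrays, against 4 h alone, on slides 3 and 4 alone and with slide as a fixed term. Without the 5 arrays over 70% and without a filter they were 0 too, but array weights gave 28 falls. Of the 59 genes 46 had their highest early mean at 1 h, and the share over all features was not counted. Of 38 proteasome genes Psmd12 fell by 0.44 (-0.64 to -0.24; -0.21 by its other probe) without overlap and Psma2 by 0.26. Of 43 cell cycle genes Mcm6, a helicase subunit of replication, fell by 0.26, Ccnb2, a mitotic cyclin, by 0.56 and Birc5, survivin, by 0.74, although the probes of Birc5 ranged from -0.74 to 0.33. Of 51 respiratory chain genes none was called. Of 28 heart muscle genes Tcap fell by 0.69, of 30 fibroblast genes Col6a1 fell by 0.32, and none of the 20 fat cell, 14 smooth muscle, 16 mesothelial and 13 other-tissue genes was called. The mean level of fat cell genes was -0.43 to 1.31 on late and 0.41 to 2.19 on early arrays, and its part in the falls was not tested.

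**Figure D5:**
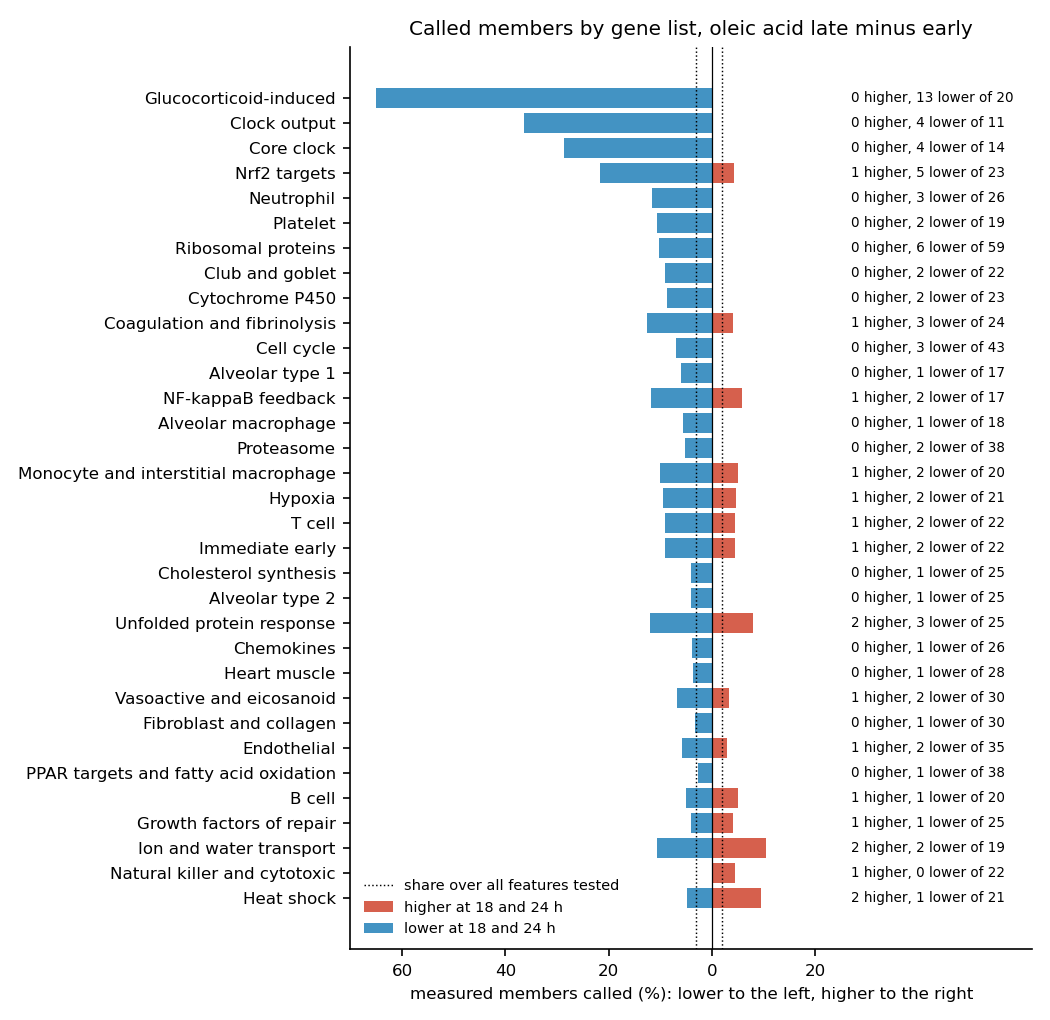
Share of the measured members of each gene list called higher (red, to the right) or lower (blue, to the left) at 18 and 24 h than at 1 to 4 h in oleic acid lungs, for lists with at least 1 call; numbers at the right give the counts and dotted lines the shares over all features tested, 1.97% higher and 3% lower. The glucocorticoid-induced list stands at the top, with 13 of 20 members lower, followed by the clock lists.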

How the data were processed

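Whole-lung RNA (200 ng, Cy3) was hybridised to 1-colour Agilent arrays, and the deposited scanner files hold the processed intensity of each spot, which the Agilent scanner software (version 10.5.1.1) had corrected for background, per the file headers. The log2 intensity minus the 75th percentile of the array was used, outlier spots were left out and spots of a probe averaged. The authors also deposited a table of log2 values with nearly equal distributions, which served as an alternative. Of 55681 probes 34929 were kept, those detected above background throughout 1 or more of the 12 groups. A gene is its brightest kept probe, and symbols came from RefSeq accessions for 26680 probes and from the file for 2542. Limma 3.58.1 (R 4.3.3) fitted 12 group means over 29 arrays, with empirical Bayes variances and Benjamini-Hochberg adjustment over 29425 features. Same-group mice may share sources the labels do not name, so p-values measure the spread between these samples.

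The arrays compared and the 45 gene lists were chosen with earlier results of these data known. Named genes were the 12 largest rises and falls without overlap, the 5 smallest p each way in saline lungs and in the difference of differences, and from each list up to 6 members with the smallest p, those called in saline lungs and those given as not passing. Tested on simulated data with 200 of 28971 genes changed, the late minus early fit recovered 20.9% of changes of 0.5 log2, 70.1% of 1 and 87.9% of 2, with 7 false calls. Alternatives covered the arrays used, background correction, scaling, filters, probe choice, slide, weights and each array left out. Not every list member that was called is reported here.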

Additional observations from a re-analysis of the deposited data

Results flagged for a closer look

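Of 48 pairs of a named gene and a group of arrays, 3 held an array that stood apart from the others by Dixon's criterion, and chance gives about 1 in 20. Mthfsd stood at 0.268 on oleic acid 24 h replicate 2 among the late arrays, where the next array was at -0.00187. Tent5b stood at 2.215 on oleic acid 24 h replicate 3 among the late arrays, where the next was at 1.76. Zim3 stood at -1.307 on oleic acid 4 h replicate 3 among the early arrays, where the next was at -3.001. No feature had all late arrays past all early arrays in opposite directions in oleic acid and saline lungs (0 features).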

How the results depend on the processing

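Of 1463 oleic acid late minus early calls, those called again numbered 80 with all 31 arrays, 66 with median centring, 768 in the deposited table and 25 with slide as a fixed term. Calls were 787 without the 5 arrays where over 70% of spots exceeded background, 909 with quantile normalization, 958 with the deposited table, 814 without a filter, 2822 with slide as a random term, 100 with slide fixed (76 higher, 24 lower), 3672 with array weights, 450 at adjusted p under 0.01, 215 with a log2 change of at least 1 and 966 on slides 3 and 4 alone (498 higher, 468 lower), an alternative chosen after seeing the data. In the order of those settings, with 31 arrays and median centring placed first, 18 h minus early gave 13, 8, 60, 265, 287, 141, 1014, 245, 1295, 91 and 143 calls, without slides 3 and 4. For 24 h minus early the same order gave 7, 11, 155, 122, 137, 117, 536, 19, 1700, 68 and 105. Saline late minus early gave 39 with 31 arrays, 69 with median centring, 334 without a filter, 205 at adjusted p under 0.01 and 202 with a log2 change of at least 1. Saline 18 h minus 4 h within slide 3, another comparison, gave 1586. The difference of differences gave 27, all lower, without the 5 arrays and 1 with array weights. Leaving out 1 array gave 765 to 1516 calls for oleic acid late minus early, 98 to 531 at 18 h, 62 to 254 at 24 h, 225 to 953 in saline lungs and 0 to 10 for the difference. The cause of these shifts was not tested. In the fit with slide as a random term the consensus correlation within slides was negative, at -0.048. That fit, too, could not tell slide from late against early in oleic acid lungs, so its larger count is no check on slide.

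With a replicate block there were 1411 calls late, 422 at 18 h, 256 at 24 h, 783 in saline lungs and 0 for the difference. Same-numbered arrays had a median correlation of 0.0252 over 136 pairs, 55 of them over 0.1, so the numbers are not taken as pairs. The median over all features lay between -0.16 and 0.05 over the settings. With slide fixed, both treatments shared 1 late minus early value for each gene. It turned to -0.37 for Plau, 0.54 for Per2, -0.15 for Klf2, 0.087 for Ppbp and -0.999 for Saa2. For Jchain it turned to 0.86, for Ccl8 to 0.28, for Celf6 to -0.36, for Krt6b to 1.17 and for Nrsn1 to -0.93. Hspa4 turned to 0.18 with the mean of its probes and Nrsn1 to -0.041 with normexp. Against 4 h alone Il1b turned to 0.14 and Rdh13 to -0.33. Olfr73, below background on all oleic acid arrays, turned under 14 settings, at -0.029, -0.051, -0.076, -0.018, -0.18, -0.76, -0.0089 and -0.31 for equal weights, normexp, quantile, median centring, late minus 3 and 4 h, late minus 4 h, without the 1 h arrays and slides 3 and 4, and ran from -0.085 to 0.16 with 1 array left out. Genes with few arrays above background set the limit of what signal can show. A change of 0.5 log2 was recovered in 20.9% of simulated cases, which held no slide effects.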
